A study of Mus musculus with 6 samples.

Results

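Csf2ra and 7 genes of the alpha-globin neighbourhood, Nprl3, Mpg, Rhbdf1, Snrnp25, Nme4, Decr2 and Rab11fip3, were followed in mouse retina with and without the chromatin remodeller Atrx. A gene was measured by each probe set that the platform annotation gives to that gene alone. This held for 7 of the 8 genes, 1 probe set each, out of 15619 genes tested in all. The only probe set with the symbol Mpg also carries that of Nprl3, so Mpg has no value of its own here.

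The retinas came from male mice at postnatal day 17 and were put on Affymetrix gene arrays, 1 array for the pooled eyes of a mouse. The 3 knockout arrays are labelled Chx10Cre+/-;Atrx flox/y and the 3 wildtype arrays, from littermates, Chx10Cre-/-;Atrx flox/y. Both groups thus carry the floxed Atrx allele, and the Cre transgene is in the knockout alone, so an effect of Cre and an effect of Atrx loss cannot be told apart. Chx10 is active in retinal progenitors, and cells that enter the retina from elsewhere, such as microglia and vessels, are not of that lineage. The series text places the height of amacrine and horizontal cell loss at this age, and in whole retina fewer cells of a type and less RNA per cell cannot be told apart.

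ATRX is a SNF2-type chromatin remodeller that, with DAXX, deposits histone H3.3 at repeats, telomeres and other heterochromatin. In humans, ATRX mutations cause a syndrome with intellectual disability and alpha-thalassaemia, in which alpha-globin output falls, and NME4, a neighbour of the globin genes, is another gene whose expression depends on ATRX there. In that human region the alpha-globin enhancers lie inside NPRL3, with MPG, RHBDF1 and SNRNP25 on one side and NME4, DECR2 and RAB11FIP3 on the other. In the mouse the same genes are divided between chromosome 11, which kept the globin genes, and chromosome 17. Csf2ra is a gene of the human pseudoautosomal region that lies on an autosome in the mouse, chromosome 19, and lower Csf2ra in Atrx-deficient mouse brain is known.

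The promoter windows of Csf2ra, which differed between the genotypes, and of Nprl3 and Nme4, a measured gene of each globin-linked block that did not pass the test, are shown to compare their letters. Each runs 5′ to 3′ on the gene's strand from 250 bases before to 50 bases after the start (RefSeq, GRCm38.p6), with CG dinucleotides in capitals. Csf2ra is at chr19:61228369-61228668, Nprl3 at chr11:32267658-32267957 and Nme4 at chr17:26095421-26095720, all on the minus strand.
Csf2ra: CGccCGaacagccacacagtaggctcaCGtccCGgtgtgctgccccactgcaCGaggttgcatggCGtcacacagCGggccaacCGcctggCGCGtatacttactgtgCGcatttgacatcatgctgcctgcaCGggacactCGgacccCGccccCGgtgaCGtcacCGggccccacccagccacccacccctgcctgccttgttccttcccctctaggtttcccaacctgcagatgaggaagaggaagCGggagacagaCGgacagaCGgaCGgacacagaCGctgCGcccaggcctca
Nprl3: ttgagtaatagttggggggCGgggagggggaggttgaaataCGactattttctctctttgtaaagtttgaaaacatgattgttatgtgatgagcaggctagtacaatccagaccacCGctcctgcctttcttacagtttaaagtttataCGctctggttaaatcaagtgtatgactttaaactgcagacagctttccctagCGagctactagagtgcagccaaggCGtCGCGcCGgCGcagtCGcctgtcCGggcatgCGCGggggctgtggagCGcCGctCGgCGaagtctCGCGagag
Nme4: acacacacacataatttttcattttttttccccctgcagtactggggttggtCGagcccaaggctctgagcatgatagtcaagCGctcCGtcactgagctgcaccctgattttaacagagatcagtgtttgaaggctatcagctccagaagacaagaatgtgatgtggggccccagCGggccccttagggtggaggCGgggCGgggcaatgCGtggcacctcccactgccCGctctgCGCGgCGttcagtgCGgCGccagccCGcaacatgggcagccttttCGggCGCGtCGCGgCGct
The Csf2ra window holds 23 CG dinucleotides, against 20 in each of the Nprl3 and Nme4 windows and a median of 7 over 32851 mouse promoter windows of the same length. At least 23 were found in 21.5% of all windows. Among the 8 windows found for 7 of the genes the number ran from 5, in the second window of Rab11fip3, to 30 in its first. GGGG, counted on both strands with overlaps, occurred in all 8 windows and in 86.4% of all windows. A quadruplex-type pattern, 4 runs of at least 3 G with 1 to 7 bases between runs on either strand, was found for Csf2ra, Mpg and Nme4, and in 18.6% of all windows. GGAA, the core letters of ETS factors, occurred 5 times for Csf2ra, on either strand, and at least once in 96.0% of all windows. These are letters in a window and not sites, and no binding was measured here.

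Csf2ra, the ligand-specific alpha chain of the receptor for the myeloid growth factor GM-CSF, fell in knockout retina, and no other gene of the set passed the test. Its log2 expression was 6.57, 6.58 and 6.52 on the knockout arrays, against 7.28, 7.35 and 7.62 on the wildtype arrays. The 3 knockout values lay within 0.058 of each other, and the highest of them was 0.70 below the lowest wildtype value. The means were 6.56 ± 0.03 in knockout and 7.42 ± 0.18 in wildtype retina (SD, n = 3 each), a log2 change of -0.86 (SE 0.10, 95% interval -1.09 to -0.63), or 1.81-fold lower. In limma's fit across all genes the adjusted p was 0.0097, under the threshold of 0.05. By an exact permutation test of the arrays the 2-sided p was 0.1, the smallest that 3 against 3 allows. The fall was the 21st largest of 15619. The call was lost without wildtype 2 (adjusted p = 0.055), without knockout 2 and wildtype 1 together (0.057) and when limma's pooling of the spread was left out (0.16), with log2 changes of -0.89, -0.94 and -0.86.

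**Figure D1:**
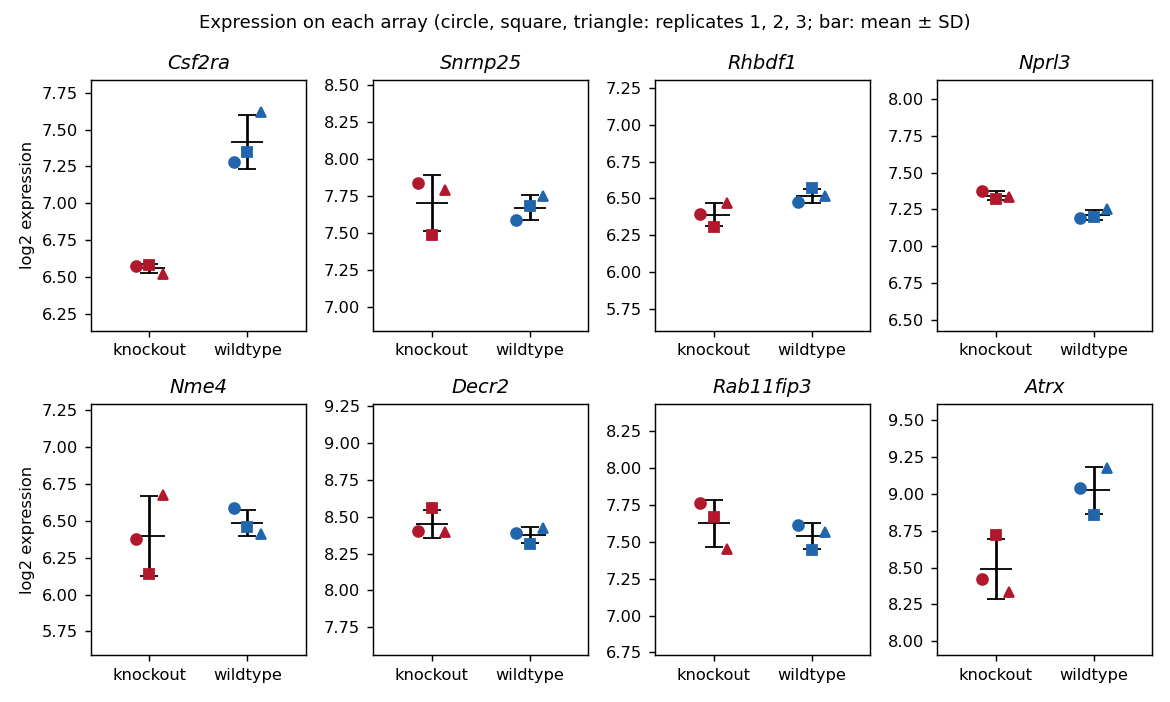
Log2 expression of each measured gene and of Atrx on the 6 arrays, knockout left and wildtype right, with the mean and SD of 3 arrays; every panel spans the same log2 range around its own mean. The 3 knockout values of Csf2ra sit between 6.52 and 6.58, all below the wildtype values of 7.28 to 7.62, while the means of each of the 6 globin-linked genes lie within 0.13 of each other.

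**Figure D2:**
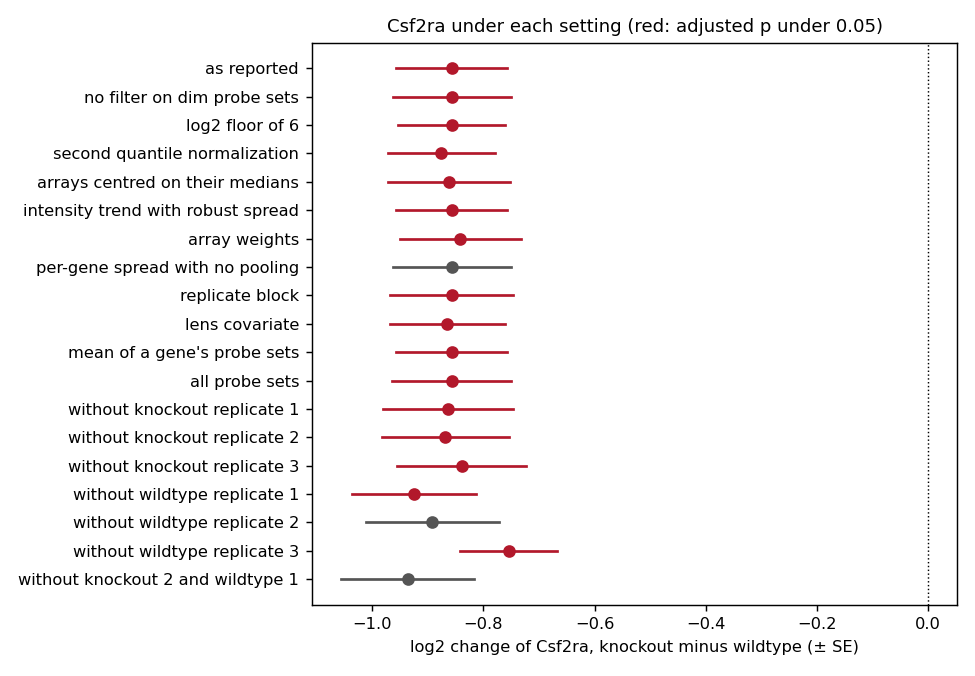
Log2 change of Csf2ra, knockout minus wildtype, with its SE under the reported setting and 18 alternatives; red marks an adjusted p under 0.05. All estimates lie between -0.94 and -0.75, and 3 of them, in grey, are not called.

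Of the 7 measured genes, all of which passed the brightness filter (a log2 value of at least 5 on 3 of 6 arrays), 1 was called, against a background of 0.826% of all genes called (0.346% lower and 0.48% higher in knockout). Their median log2 change was 0.03, against 0.0027 over all genes tested. The 2 groups of arrays did not overlap for 3 of the 7 (Csf2ra, Rhbdf1 and Nprl3), against 20.3% of all genes.

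The targeted gene Atrx had log2 values of 8.42, 8.72 and 8.33 in knockout and 9.04, 8.86 and 9.17 in wildtype retina. All 3 knockout values were lower, with a log2 change of -0.53 (SE 0.12). It did not pass limma's threshold (adjusted p = 0.115), except with an intensity trend and robust spread (0.039). Where its probes lie against the floxed exons is not known from the files.

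Of the measured genes, Nprl3, Rhbdf1 and Snrnp25 lie beside the alpha-globin cluster on chromosome 11. Nprl3 encodes a subunit of GATOR1, the complex that restrains mTORC1 when amino acids are scarce, and its introns hold the major globin enhancers. Nprl3 had 7.37, 7.32 and 7.34 in knockout retina, against 7.19, 7.20 and 7.25 in wildtype. The knockout arrays were all higher, by a gap of 0.064, and the log2 change of 0.13 (SE 0.070, 95% interval -0.03 to 0.29) did not pass limma's threshold (adjusted p = 0.47).

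Rhbdf1 encodes iRhom1, an inactive rhomboid protein that governs the trafficking of the shedding protease ADAM17. Its values were 6.40, 6.31 and 6.47 in knockout, against 6.47, 6.57 and 6.51 in wildtype retina. All knockout values were lower, but by a gap of 0.0052 between the nearest arrays, and the log2 change of -0.13 (95% interval -0.31 to 0.05) was not called by limma (adjusted p = 0.51).

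Snrnp25 encodes a protein of the U11/U12 particle of the minor spliceosome. It had 7.83, 7.49 and 7.79 in knockout and 7.58, 7.68 and 7.75 in wildtype retina. The groups overlapped, with knockout 2 the lowest of all 6 arrays (log2 change 0.03, 95% interval -0.21 to 0.28, limma's adjusted p = 0.92). The estimate turned to -0.033 without knockout 1, -0.0093 without knockout 3 and -0.010 without wildtype 1.

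The other genes lie together on chromosome 17. Nme4, a mitochondrial nucleoside diphosphate kinase, had 6.38, 6.14 and 6.68 in knockout retina and 6.59, 6.46 and 6.41 in wildtype. Knockout held both the lowest and the highest value, and its SD of 0.27 was wider than the 0.09 of wildtype. The log2 change of -0.09 was not called by limma (95% interval -0.39 to 0.22, adjusted p = 0.81), and it was 0.04 without knockout 2. As a fold of knockout over wildtype, the interval runs from 0.761 to 1.16.

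Decr2, a peroxisomal reductase that takes part in the breakdown of unsaturated fatty acids, had 8.40, 8.56 and 8.39 in knockout and 8.39, 8.31 and 8.42 in wildtype retina. The groups overlapped, and the log2 change was 0.08 (95% interval -0.11 to 0.26, limma's adjusted p = 0.72).

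Rab11fip3, an effector of Rab11 and Arf GTPases in recycling endosomes and cytokinesis, had 7.76, 7.67 and 7.45 in knockout and 7.61, 7.44 and 7.57 in wildtype retina. These overlapped too, with a log2 change of 0.09 (95% interval -0.14 to 0.31, limma's adjusted p = 0.75). Across the 6 globin-linked genes the intervals run from -0.39 to 0.31 on the log2 scale, and each of them leaves out a fall as large as that estimated for Csf2ra.

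**Figure D3:**
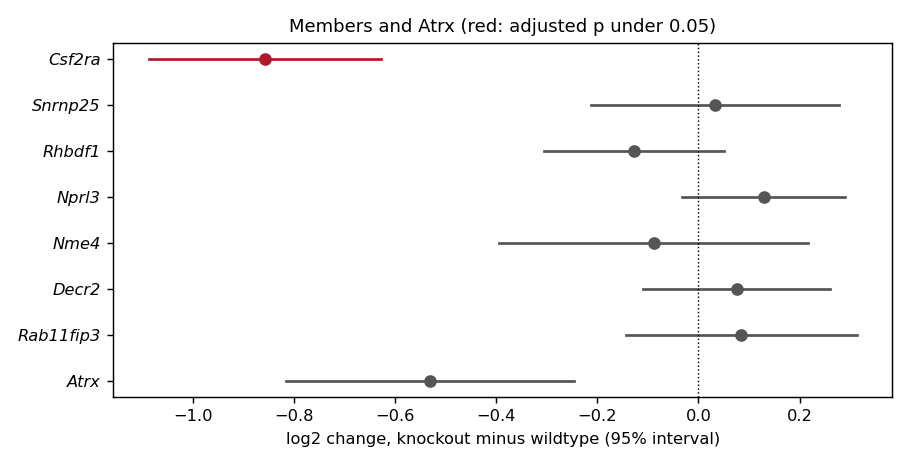
Log2 change, knockout minus wildtype, of the 7 measured genes and Atrx, with 95% intervals from limma; red marks an adjusted p under 0.05. The interval of Csf2ra (-1.09 to -0.63) lies apart from those of the 6 globin-linked genes, which all cross 0.

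The genes next to each member on its chromosome were read in the same fit, with RefSeq (GRCm38.p6) used only for their order. Csf2ra is the last tested coding gene of chromosome 19, with 0 tested coding genes beyond it. Its nearest tested neighbour, the zinc finger gene Zfp950, had 5.92, 5.88 and 5.82 in knockout and 6.02, 5.88 and 6.05 in wildtype retina, with overlapping groups (log2 change -0.11, limma's adjusted p = 0.58). Grk5, a kinase of G protein-coupled receptors, came next with a log2 change of -0.23 (adjusted p = 0.49). Prdx3, a mitochondrial peroxiredoxin, was at 0.05, Sfxn4 at -0.07 and Dennd10 at -0.02. None of these 5 was called, against 0.826% of all genes, and in none did the groups stand apart, against 20.3% of all genes.

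On chromosome 11 the nearest tested neighbours were Il9r, the interleukin 9 receptor, before Snrnp25 (log2 change -0.02), and the theta-globin gene Hbq1b after Nprl3 (-0.11). Hbq1b had 5.59, 4.95 and 5.34 in knockout and 5.24, 5.45 and 5.51 in wildtype retina, close to the brightness floor of 5. It was the only gene of the alpha-globin list of 5 that was tested. Hba-x and Hbq1a were too dim, and the adult genes Hba-a1 and Hba-a2 had no probe set with a single symbol and are not analysed here. Stk10, a kinase known from lymphocytes, had the largest difference of the flank, at -0.31 (SE 0.11), and missed limma's threshold (adjusted p = 0.28). Of the 9 genes listed for this flank 7 were tested and none was called, against 0.826% of all genes. Of the 7, 1 had an unadjusted p under 0.05, against 13.5% of all genes. Their median was -0.06, against 0.0027 for all genes.

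On chromosome 17 the members' nearest neighbours were Capn15, a calpain-family gene, before Rab11fip3 (log2 change -0.04), and Pgap6 after Nme4 (0.01). Mrpl28, a protein of the mitochondrial ribosome, had 6.57, 6.54 and 6.53 in knockout and 6.43, 6.34 and 6.43 in wildtype retina. Its knockout values were all higher, and the log2 change of 0.15 was not called by limma (adjusted p = 0.41). Wfikkn1, a secreted protein that binds myostatin, was at -0.24 (SE 0.071, adjusted p = 0.19), with all knockout values lower. Rhot2, a GTPase of the outer mitochondrial membrane, was at 0.17. Of the 32 genes listed for this block 26 were tested and limma called 0 of them, against 0.826% of all genes. Of the 26, 1 had an unadjusted p under 0.05, against 13.5% of all genes, and the median was -0.02.

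Over the 3 places, 25 distinct neighbours that are no members were read, with log2 changes between -0.31 and 0.15. Limma called 0 of them and 2 had an unadjusted p under 0.05, against 0.826% and 13.5% of all genes. Of these 25, 20 were below 0, against 49.1% of all genes, and their median was -0.09, against 0.0027 over all genes. The groups stood apart for 4 of the 25, against 20.3% of all genes, and the neighbours were not tested as a set.

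**Figure D4:**
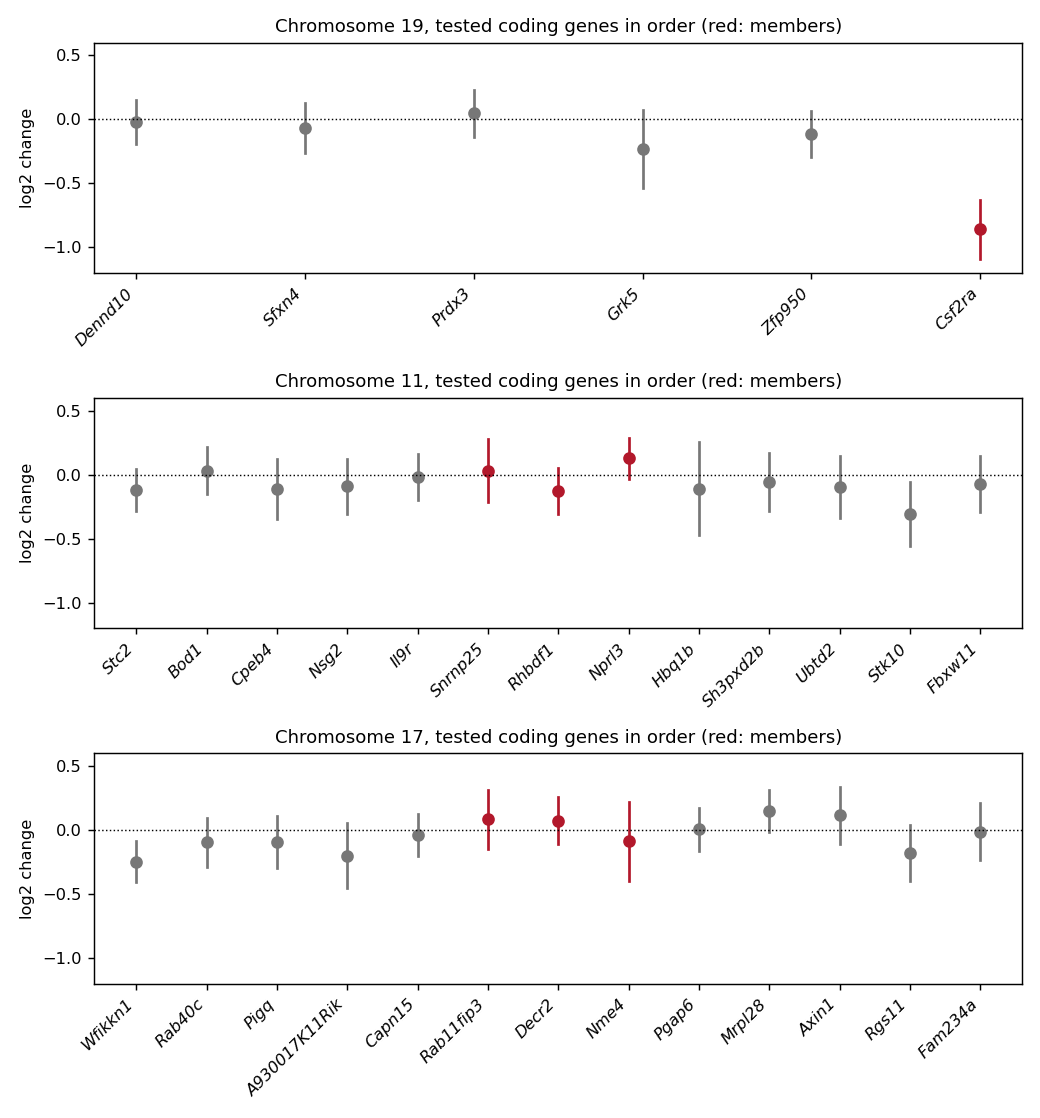
Log2 change, knockout minus wildtype, with 95% limma intervals for tested coding genes in chromosomal order around the members (red) on chromosomes 19, 11 and 17; the horizontal axis shows order and not distance. Csf2ra, at the end of its chromosome, stands at -0.86, and the 25 neighbours (grey) lie between -0.31 and 0.15.

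The mouse counterparts of human pseudoautosomal and boundary genes, with some close relatives, were listed because Csf2ra belongs to them. Of 21 listed genes 10 were tested, and Csf2ra alone was called, against 0.826% of all genes. Csf2ra included, 2 of the 10 had an unadjusted p under 0.05, against 13.5% of all genes. The groups stood apart for 2 of the 10, against 20.3% of all genes. Mid1, a ubiquitin ligase of microtubules that spans the mouse pseudoautosomal boundary, had 9.58, 9.99 and 9.51 in knockout and 9.16, 9.25 and 9.21 in wildtype retina. All knockout values were higher, and the log2 change of 0.49 (SE 0.12) missed limma's threshold (adjusted p = 0.14). Il3ra, the interleukin 3 receptor alpha chain whose human counterpart neighbours CSF2RA, lies on chromosome 14 in the mouse. It had 6.07, 5.44 and 5.82 in knockout and 5.92, 5.90 and 6.11 in wildtype retina (log2 change -0.20, adjusted p = 0.61). Dhrsx, on chromosome 4, was at -0.03, Crlf2 and Plcxd1, both on chromosome 5, at 0.0026 and 0.0016, and Cd99l2, on the X chromosome, at -0.10. The list's median was -0.02, against 0.0027 over all genes.

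GM-CSF signals through Csf2ra and the shared beta chain Csf2rb to the kinase Jak2 and the transcription factors Stat5a and Stat5b. Of 22 genes of this pathway 15 were tested. Csf2ra was called and 14 were not, against 0.826% of all genes called. Csf2ra included, 3 of the 15 had an unadjusted p under 0.05, against 13.5% of all genes. The ligand gene Csf2 was too dim to test, as were Csf2rb2, Il3, Il5 and Il5ra. Csf2rb, near the floor, had 5.00, 5.58 and 5.36 in knockout and 5.16, 5.74 and 5.33 in wildtype retina, so the groups overlapped (log2 change -0.10, limma's adjusted p = 0.85). Jak2 was at 0.17 (adjusted p = 0.56).

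Stat5a had 5.85, 6.01 and 5.81 in knockout and 6.07, 6.25 and 6.01 in wildtype retina (log2 change -0.22, limma's adjusted p = 0.36). The knockout arrays were all lower, although knockout 2 and wildtype 3 nearly met. Stat5b had 7.83, 8.04 and 7.81 in knockout and 8.06, 8.19 and 8.08 in wildtype retina (log2 change -0.21, adjusted p = 0.36). Bcl2l1, a survival gene downstream of STAT5, was at -0.16 (adjusted p = 0.44). With Csf2ra itself counted, 12 of the 15 lay below 0, against 49.1% of all genes, and the pathway median was -0.12, against 0.0027 over all genes. The pathway was not tested as a set.

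**Figure D5:**
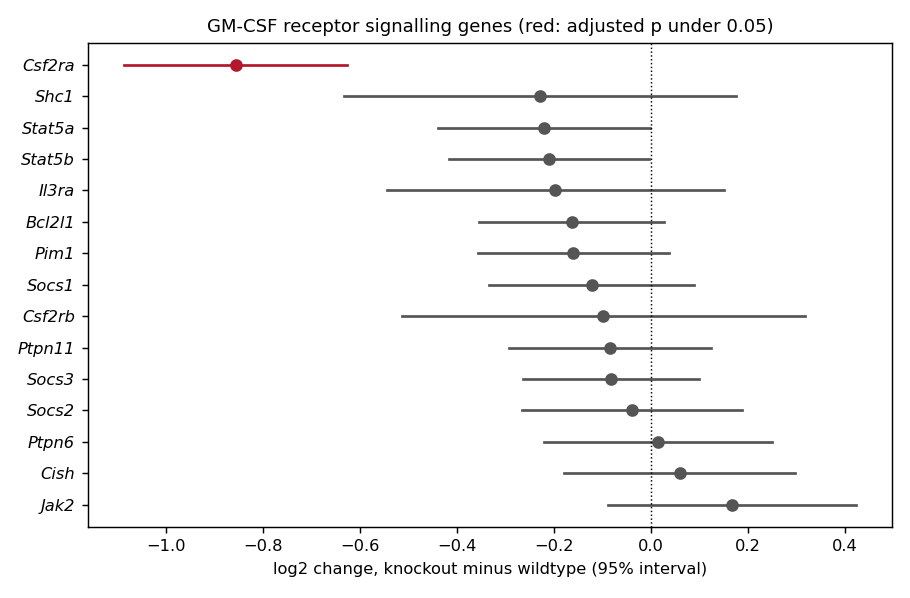
Log2 change, knockout minus wildtype, with 95% limma intervals for the 15 tested genes of GM-CSF receptor signalling; red marks an adjusted p under 0.05. Csf2ra is at -0.86, and the next genes are Shc1 at -0.23, whose interval crosses 0, and Stat5a at -0.22 and Stat5b at -0.21, whose intervals end just below 0.

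Csf2ra is best known in myeloid cells, so markers of microglia were set beside it. Of 16 listed 14 were tested, and Ptprc was too dim. Limma called 0 of the 14, and 0 had an unadjusted p under 0.05, against 0.826% and 13.5% of all genes. Their mean log2 value ran from 6.09 to 6.30 on knockout arrays and from 6.23 to 6.28 on wildtype arrays, and their changes ran from -0.16 for Trem2 to 0.06. Below 0 lay 10 of the 14, and 4 lay above, against 49.1% of all genes below 0. The median was -0.02, against 0.0027 over all genes. After Trem2 the smallest p-values were those of Aif1 (log2 change -0.12) and Itgam (-0.11). Cx3cr1 had means of 7.05 in knockout and 7.06 in wildtype retina, P2ry12 of 6.73 in knockout and 6.68 in wildtype, and Tmem119 of 5.53 in knockout and 5.51 in wildtype retina. The groups stood apart for 0 of the 14 markers, against 20.3% of all genes. Some markers lay near the brightness floor of 5, such as Itgam (means 5.2 in knockout and 5.3 in wildtype retina) and Aif1 (5.3 and 5.4).

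Lens markers, which mark lens tissue carried into a sample, were high on knockout 2 (mean of 13 genes 9.78) and wildtype 1 (11.15), against 5.66 and 6.09 on the other knockout arrays and 5.68 and 5.80 on the other wildtype arrays. Csf2ra was at 6.58 on knockout 2, the highest of the knockout values, and at 7.28 on wildtype 1, the lowest of the wildtype values. With the lens mean as a covariate its log2 change was -0.86 (limma's adjusted p = 0.013), and without both arrays it was -0.94 (adjusted p = 0.057). Retinal markers had a mean between 9.97 and 10.11 on knockout arrays and between 10.15 and 10.20 on wildtype arrays. Of 8 tested, limma called 0 (3 at an unadjusted p under 0.05, against 13.5% of all genes). Among the 8, Tfap2b, an amacrine and horizontal cell factor, was at -0.52 (adjusted p = 0.104), Prox1 at -0.40 (adjusted p = 0.24) and Rlbp1 at -0.20 (adjusted p = 0.30). Pax6 was at -0.06, Grm6 and Pde6b both at -0.02, Slc17a6 at -0.01 and Crx at 0.09. The part of these genes in the fall of Csf2ra was not tested.

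The 5 genes whose values most resembled those of Csf2ra over the 6 arrays were Wfikkn1 (Pearson's r = 0.989), Optc (0.987), Onecut1 (0.986), Dpyd (0.986) and Barhl2 (0.985). All were lower on every knockout array than on any wildtype array. Dpyd, the first enzyme of pyrimidine breakdown, had a log2 change near that of Csf2ra (-0.88), while Optc, an extracellular matrix protein of the eye, was at -0.44. Onecut1, a horizontal cell factor, was at -0.38 and Barhl2, an amacrine and ganglion cell factor, at -0.27. These genes were picked for sharing the arrays' pattern, which includes the genotype, so their differences are a description.

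Each globin-linked gene belongs to a working group that was read in the same way. Over all genes tested, 0.826% were called, 13.5% had an unadjusted p under 0.05 and 49.1% lay below 0. The groups were not tested as sets. In amino acid sensing upstream of mTORC1, the group of Nprl3, limma called 0 of 30 tested genes (1 at an unadjusted p under 0.05). The median was 0.04, with Rraga, a Rag GTPase, at 0.25 (adjusted p = 0.27) and Sesn3, a leucine and stress sensor family member, at -0.24. In base excision repair, to which the unmeasured Mpg belongs as a DNA glycosylase that removes alkylated bases, 0 of 19 were called (2 at an unadjusted p under 0.05). The list also holds Mgmt, Alkbh2 and Alkbh3, whose enzymes reverse alkylation directly, without excision. There the uracil glycosylase Smug1 had 7.25, 7.52 and 7.47 in knockout and 7.03, 6.88 and 6.92 in wildtype retina. Its groups did not overlap, and the log2 change of 0.47 (SE 0.095) missed limma's threshold (adjusted p = 0.077). Apex2, an abasic site nuclease, was at 0.21 and the glycosylase Neil2 at 0.22.

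The rhomboid and EGF-ligand group of Rhbdf1 held 2 called genes among 16 tested, against 0.826% of all genes called. The EGF receptor ligand Btc, betacellulin, rose, with 6.85, 6.94 and 6.78 in knockout and 6.41, 6.26 and 6.41 in wildtype retina (log2 change 0.50, SE 0.084, limma's adjusted p = 0.043). Tgfa, another ligand of that receptor and a substrate of ADAM17, fell, with 5.07, 5.12 and 5.17 in knockout and 5.65, 5.63 and 5.49 in wildtype retina (log2 change -0.47, SE 0.079, adjusted p = 0.043). The knockout values of Tgfa lay close to the brightness floor of 5. Both calls were lost whichever single array was left out (adjusted p from 0.071 to 0.21 for Btc and from 0.068 to 0.22 for Tgfa). Rhbdl3 was at -0.51 (adjusted p = 0.18), Frmd8, which stabilises the iRhom complex, at -0.21 and Rhbdf2, the paralogue of Rhbdf1, at 0.26 (0.33). The group median was -0.02.

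In the minor spliceosome limma called 0 of 10 genes (1 at an unadjusted p under 0.05). Of the 10, 9 were above 0 and 1 below, against 49.1% of all genes below 0. The median was 0.08, and Rbm48 was at 0.28 (adjusted p = 0.16), Scnm1 at 0.21 and Zmat5 at -0.18. Among nucleoside diphosphate kinases 0 of 5 were called (1 at an unadjusted p under 0.05), with Nme1 at 0.28 (adjusted p = 0.32) and Nme5 at 0.16. In peroxisomal fatty acid oxidation, listed with some mitochondrial relatives such as Decr1 and Eci1, 0 of 18 were called (3 at an unadjusted p under 0.05, against 13.5% of all genes). Above 0 lay 15 and below 0 lay 3, with a median of 0.06. The carrier and thiolase gene Scp2 was at 0.27, the oxidase Acox3 at -0.23 and the transporter Abcd2 at 0.27. In Rab11 recycling 0 of 14 were called (3 at an unadjusted p under 0.05), with Rab3ip, an exchange factor of Rab8, at 0.34 (adjusted p = 0.14) and the motors Myo5b at -0.41 and Myo5a at -0.26. Among ATRX and its partners 0 of 9 were called (2 at an unadjusted p under 0.05), with Atrx as above, the methyltransferase Ezh2 at 0.29 (adjusted p = 0.27) and Cbx3, a heterochromatin protein, at 0.11.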

How the data were processed

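RNA of whole retina was measured on 3 knockout and 3 wildtype arrays. The deposited values are log2 expression per probe set, made by the authors with RMA per the submitters' processing notes; its version and the annotation build were not given in the sources used here. RMA corrects background, normalizes by quantiles and summarises probes, so a global shift in RNA would be hidden and folds of dim genes are compressed. Of 41345 probe sets, 23521 carry 1 symbol, 1814 several and 16010 none; 23328 of the first matched the RefSeq gene table (GRCm38.p6), used for names and gene order.

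A probe set was tested if it reached log2 5 on at least 3 of 6 arrays, the brightest representing a gene. Knockout minus wildtype was fitted with limma 3.58.1 in R 4.3.3 (lmFit, eBayes, 2-sided), with Benjamini-Hochberg adjustment over 15619 genes and calls at an adjusted p under 0.05. The labels name littermates but tie no array to a litter, and p-values measure the spread between these arrays, whose number limits the precision (median SE 0.095). On simulated data the fit called 49 of 100 changes of 0.5 on the log2 scale and 89 of 100 changes of 1, with 8 false calls. A gene that was not called may thus still differ.

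The genes, lists and tests were chosen with earlier results of these data known. Named are the 8 genes, Atrx, called genes and up to 3 next genes by p of each list, nearest neighbours (5 were read on either side) and the genes most like each by Pearson's r (5 for Csf2ra, 2 for the others). Further genes (such as Csf2rb, Jak2, Il3ra, Crlf2, Grk5, Shc1 and single markers) were named for their roles after their values were seen. The pathway and block lists were not tested as sets. Promoter windows were searched in RefSeq sequence. Alternatives covered the brightness filter, normalization, variance model, replicate block, lens covariate, probe set rule and arrays left out. Figures used matplotlib 3.10.9.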

Additional observations from a re-analysis of the deposited data

How the results depend on the processing

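Csf2ra kept its direction in all 18 alternatives, between -0.94 and -0.75 on the log2 scale, and its call in 15 of them; single arrays left out gave -0.92 to -0.75. It was not called with a spread per gene (-0.86, limma's adjusted p = 0.16), without wildtype 2 (-0.89, 0.055) or without knockout 2 and wildtype 1 (-0.94, 0.057). Why the call was lost there was not tested. The number of genes of the set called, 1, was therefore 0 with a spread per gene (2 at an unadjusted p under 0.05) and 0 without knockout 2 and wildtype 1 (1 at an unadjusted p under 0.05), and ran from 0 to 1 with single arrays left out. Atrx was called with an intensity trend and robust spread only (-0.53, adjusted p = 0.039). The 129 genes called in all became 74 with no brightness filter, 209 with a log2 floor of 6, 282 with an intensity trend, 1 with a spread per gene, 74 over all probe sets, 36 without knockout 2 and wildtype 1, and 25 to 141 with single arrays left out. Same-numbered arrays did not deviate together (r of -0.27, -0.38 and -0.058). With 3 arrays a group, and lens tissue on knockout 2 and wildtype 1, this cannot show whether the replicate numbers pair arrays. With the number as a block 68 genes were called, with limma's adjusted p at 0.033 for Csf2ra, 0.15 for Btc and 0.16 for Tgfa. Nme4 changed sign without knockout 2 (0.042) and without knockout 2 and wildtype 1 (0.093), and Snrnp25 without knockout 1 (-0.033), knockout 3 (-0.0093) or wildtype 1 (-0.010); the cause was not tested. With single arrays left out Nme4 ran from -0.23 to 0.04, Snrnp25 from -0.03 to 0.14, Decr2 from 0.02 (without knockout 2) to 0.10, Rab11fip3 from 0.02 (without knockout 1) to 0.17, Nprl3 from 0.11 to 0.15 and Rhbdf1 from -0.17 to -0.09. With 3 arrays a group, differences under about 0.22 on the log2 scale, the median half-width of the unadjusted 95% intervals, are not resolved. At the adjusted threshold larger differences can be missed too. On simulated data 49 of 100 changes of 0.5 were called.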

Other observations

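The probe set that carries both symbols Mpg and Nprl3 had log2 values of 6.55, 6.52 and 6.63 on knockout arrays, against 6.55, 6.63 and 6.55 on wildtype arrays. The groups overlapped, and among all probe sets its log2 change was -0.0062 (SE 0.077, limma's adjusted p = 0.98). The 2 genes share 740 bases in RefSeq, and the value was given to neither.

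The genes that most resembled each globin-linked gene over the 6 arrays differed from member to member. Nprl3 was nearest to Gulo, the last enzyme of ascorbate synthesis (Pearson's r = 0.997), and Zdhhc2, a palmitoyltransferase (0.996). Gulo averaged 9.71 ± 0.28 in knockout and 8.35 ± 0.28 in wildtype retina (SD, n = 3 each), a log2 change of 1.35 beside 0.13 for Nprl3. Rhbdf1 was nearest to Dear1 (0.997) and Pdyn, the prodynorphin gene (0.996), and Snrnp25 to Speer4a (0.994) and Olfr1350 (0.991). Dear1 (means 4.79 in knockout and 5.18 in wildtype retina) and Olfr1350 (4.98 in knockout and 4.95 in wildtype) lay close to the brightness floor of 5. Nme4 was nearest to Dhrsx (0.998), the mouse counterpart of a human pseudoautosomal gene, and Smtnl1 (0.993). Decr2 was nearest to Fastkd1 and Tsn (both 0.988), and Rab11fip3 to Ints6 (0.996) and Ttyh1 (0.990). Among members, Csf2ra had r = -0.83 with Nprl3 and 0.73 with Rhbdf1, and Rhbdf1 had -0.87 with Decr2. These values rest on 6 arrays of both genotypes that also differ in lens tissue, so genotype and tissue makeup enter every r. The like genes were picked as the highest r among the tested genes over these few arrays. A high r was found for every member, so these likenesses are a description.

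Pigment epithelium markers averaged between 9.63 and 10.24 on knockout arrays and between 9.54 and 10.39 on wildtype arrays, and limma called 0 of 7. Of the 7, 1 had an unadjusted p under 0.05, against 13.5% of all genes. That gene, Rlbp1 (log2 change -0.20), is also counted among the retinal markers above. The single tested red blood cell gene, Slc4a1, had a log2 change of 0.08.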
